A study of Bos taurus and Bos frontalis with 6 samples.

Results

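Collagen fibres form most of the connective tissue sheaths that wrap muscle fibres, bundles and whole muscles, and in meat science this intramuscular connective tissue is known as the source of background toughness. The genes described here were 3 genes for chains of the main fibrillar collagens of these sheaths, COL1A1, COL1A2 and COL3A1, and 2 genes for matrix proteins that bind collagen, DCN and SPARC. They are 5 of the 27270 cattle gene identifiers in the deposited table and were chosen by identifier: ENSBTAG00000013103 for COL1A1, ENSBTAG00000013472 for COL1A2, ENSBTAG00000021466 for COL3A1, ENSBTAG00000003505 for DCN and ENSBTAG00000014835 for SPARC. All 5 passed the filter on low counts and had counts in all 6 libraries. The deposited table holds identifiers only, so the symbols rest on the list by which the genes were chosen.

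RNA came from the longissimus dorsi, the long back muscle, of Banna cattle (Bos taurus) and of Gayal (Bos frontalis), a semi-wild bovine, with 3 libraries each. The age in the labels was 3.5 ± 0.5 years for every library, and no treatment is named. The deposited sample sheet names batches without saying what they were: batch A held Gayal replicate 1 with Banna replicates 1 and 2, and batch B held Gayal replicates 2 and 3 with Banna replicate 3. The sheet also classes all Banna libraries as coarse and all Gayal libraries as fine in fibre, so that fibre class and species cannot be told apart. The labels do not say that each library came from a separate animal, and the p-values therefore measure only the spread between these libraries. Reads of both species were aligned to a cattle genome, per the submitters' processing notes. The muscle and cell type markers that would check the tissue were not analysed here, for want of symbols.

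Type I collagen, the chief fibril-forming collagen of tendon, bone and muscle sheaths, is a triple helix of alpha1 chains from COL1A1 and an alpha2 chain from COL1A2. Type III collagen, made from COL3A1 alone, lies in the finer fibrils of the inner sheaths. Decorin, from DCN, is a small leucine-rich proteoglycan that coats collagen fibrils and binds the growth factor TGF-beta, and SPARC, or osteonectin, is a secreted glycoprotein that binds collagen and calcium. In muscle, fibroblasts are a main source of these transcripts. In a bulk sample, a change in the number of such cells and a change in RNA per cell cannot be told apart.

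Library totals ran from 53979857 estimated counts in Gayal replicate 1 to 90313051 in Banna replicate 3. The 5 genes together held 0.532% of the total in Banna replicate 2 and 0.0265% in Gayal replicate 2, and between 0.0539% and 0.143% in the other 4 libraries. Banna replicate 2 and Gayal replicate 2 stood apart in this respect, on opposite sides. Low counts in each library piled up at multiples of a step, which differed between the batches. The step was 3.33 counts in Banna replicates 1 and 2 and 3.31 in Gayal replicate 1, all of batch A. In each batch B library it was 4 counts. The smallest value among these genes, 656 counts of COL1A1 in Gayal replicate 2, came to 164 such steps, with a 95% exact Poisson interval of 140 to 191 for counting error only. For the larger counts the interval was narrower. Its half-width ran from 15.6% of the count, for COL1A1 in Gayal replicate 2, down to 0.838%, for SPARC in Banna replicate 2. Differences between libraries smaller than these widths are not distinguishable from counting error.

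Levels are given as CPM, a gene's count as a share of its library's total on a fixed scale, further scaled by the TMM method, which adjusts for differences between libraries in the make-up of that total. They are not divided by transcript length, so a level is compared between libraries and not between genes. COL1A1 was at 141, 938 and 76.1 CPM in Banna replicates 1, 2 and 3, and at 142, 8.73 and 69.7 CPM in Gayal replicates 1, 2 and 3. Banna replicate 2 was 6.59-fold above the next library, Gayal replicate 2 was 7.99-fold below the next, and the other 4 lay between 69.7 and 142 CPM. By count, COL1A1 stood at place 108 of all genes in Banna replicate 2 and at place 5813 in Gayal replicate 2. The species overlapped: the means were 385 ± 480 CPM in Banna and 73.6 ± 66.9 CPM in Gayal (SD, n = 3).

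COL1A2, the partner chain, was at 105, 528 and 52.4 CPM in Banna replicates 1 to 3 and at 135, 16.8 and 60.3 CPM in Gayal replicates 1 to 3. The same libraries were highest and lowest, Banna replicate 2 by 3.90-fold and Gayal replicate 2 by 3.12-fold, and the species overlapped. The means were 228 ± 261 CPM in Banna and 70.8 ± 59.95 CPM in Gayal (SD, n = 3). Between its highest and lowest library COL1A2 differed 31.4-fold, against 107-fold for COL1A1.

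COL3A1, the type III collagen gene, was at 260, 1192 and 66.2 CPM in Banna replicates 1 to 3 and at 212, 19.4 and 78.9 CPM in Gayal replicates 1 to 3. Again Banna replicate 2 was alone at the top, 4.59-fold above the next library, and Gayal replicate 2 alone at the bottom, 3.41-fold below the next. The means were 506 ± 602 CPM in Banna and 103 ± 98.6 CPM in Gayal (SD, n = 3), and the libraries of the species overlapped.

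DCN, the proteoglycan gene, had another leading library. Its levels were 198, 382 and 83.9 CPM in Banna replicates 1 to 3 and 399, 50.4 and 78.5 CPM in Gayal replicates 1 to 3. Gayal replicate 1 and Banna replicate 2 were nearly level at the top, and Gayal replicate 2 was lowest, 1.56-fold below the next library. The species means were close beside their spread, 221 ± 150 CPM in Banna and 176 ± 194 CPM in Gayal (SD, n = 3).

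SPARC was at 579, 1972 and 273 CPM in Banna replicates 1 to 3 and at 482, 178 and 360 CPM in Gayal replicates 1 to 3. Banna replicate 2 was 3.41-fold above the next library, while Gayal replicate 2 was only 1.53-fold below the next. The means were 941 ± 905 CPM in Banna and 340 ± 153 CPM in Gayal (SD, n = 3), with overlap. The highest and the lowest library were 11.1-fold apart for SPARC and 7.91-fold apart for DCN, against a median of 2.77-fold over the 14112 tested genes. By this range, DCN lay above 90.8% of the tested genes, SPARC above 94.7%, COL1A2 above 98.6%, COL3A1 above 99.4% and COL1A1 above 99.7%.

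**Figure D1:**
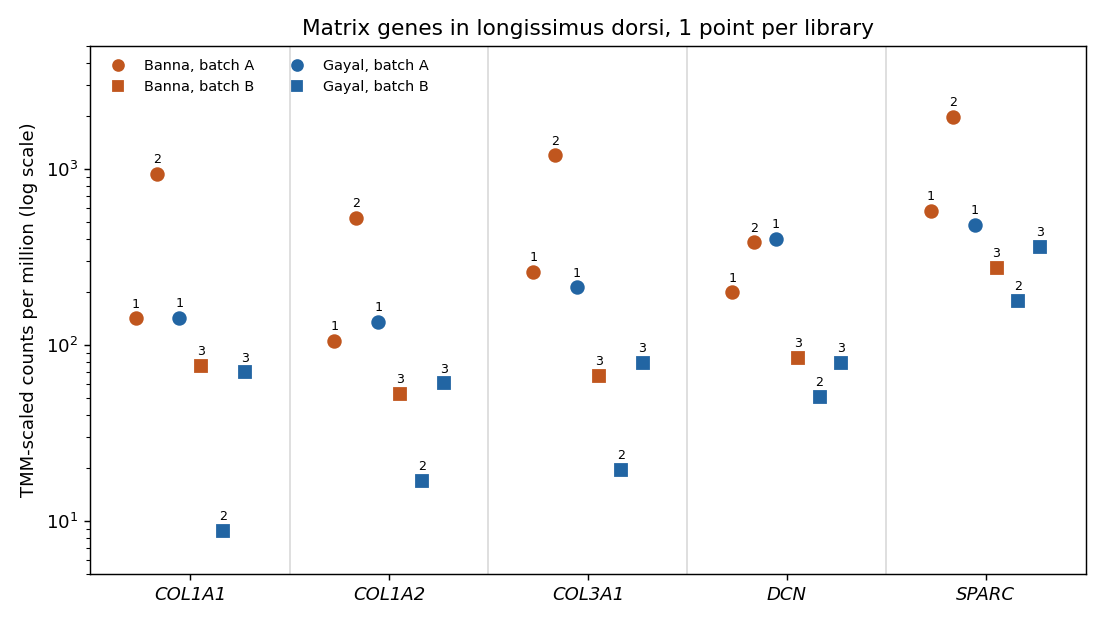
Level of each matrix gene in each library, as TMM-scaled CPM on a log axis; each point is 1 library, its number is the replicate, colour is species and shape is batch. Banna replicate 2 is highest for 4 of the 5 genes, Gayal replicate 2 is lowest for all 5, and the batch A points lie above the batch B points for every gene.

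Libraries of the same species and batch show how far these genes varied within a group. Only 2 such pairs exist, Banna replicates 1 and 2 in batch A and Gayal replicates 2 and 3 in batch B. For these comparisons over all genes, 0.5 CPM was added before taking logs. Banna replicate 2 was above replicate 1 by 6.62-fold for COL1A1, 5.01-fold for COL1A2, 4.58-fold for COL3A1, 3.41-fold for SPARC and 1.92-fold for DCN, while the median absolute difference over all tested genes was 1.33-fold. In that pair COL1A1 had the 66th largest excess of 14112 genes. Gayal replicate 3 was above replicate 2 by 7.61-fold for COL1A1, 3.98-fold for COL3A1, 3.51-fold for COL1A2, 2.02-fold for SPARC and 1.55-fold for DCN, with a median absolute difference of 1.27-fold over all genes. Here COL1A1 had the 29th largest excess. In both pairs the 3 collagen genes differed most, and DCN least, among the 5.

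Across species there are 4 pairs of libraries in the same batch, and 2 of them were close for the collagens. Gayal replicate 1 over Banna replicate 1, both of batch A, gave 1.01 for COL1A1, 1.29 for COL1A2, 0.816 for COL3A1, 2.01 for DCN and 0.833 for SPARC. Gayal replicate 3 over Banna replicate 3, both of batch B, gave 0.916 for COL1A1, 1.15 for COL1A2, 1.19 for COL3A1, 0.936 for DCN and 1.32 for SPARC. The other 2 pairs, which include Banna replicate 2 or Gayal replicate 2, were far apart for the collagens. Banna replicate 2 over Gayal replicate 1, in batch A, gave 6.59 for COL1A1, 3.90 for COL1A2 and 5.62 for COL3A1. Banna replicate 3 over Gayal replicate 2, in batch B, gave 8.72, 3.12 and 3.41. For DCN these pairs gave 0.958 in batch A and 1.66 in batch B, and for SPARC 4.09 and 1.53. Both pairs within a species also include one of these libraries. Banna replicate 2 and Gayal replicate 2 were named as highest and lowest for these same collagens, so wide gaps in their pairs follow from that choice.

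Banna replicate 2 was at least 4-fold above every other library for 57 of 14112 tested genes, 0.404%, and COL1A1 and COL3A1 were among them. Gayal replicate 2 was at least 4-fold below every other library for 19 genes, 0.135%, and COL1A1 was one of them. Those counts were likewise taken with 0.5 CPM added. The tissue make-up of Banna replicate 2 and Gayal replicate 2, and its part in the result, was not tested.

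The species were compared with edgeR, a count model, fitted to all genes with species and batch as terms. The question was which genes differ between muscles that the series title describes as differing in beef quality. None of the 5 genes passed an adjusted p of 0.05 in either direction, where 6 of 14112 genes, 0.0425%, were called higher in Gayal and 0, 0%, lower. At an unadjusted p under 0.05 the 5 genes also gave 0, against 7.96% of all genes. DESeq2 and limma-voom with the same terms called 0 of the 5 as well, where DESeq2 called 2.26% of genes higher and 1.2% lower and limma-voom 0.0709% and 0.0213%.

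The fitted log2 difference, Gayal minus Banna, was -1.44 for COL1A1 (95% interval -3.88 to 1.002, edgeR adjusted p = 0.780). For COL1A2 it was -0.83 (-2.69 to 1.02, edgeR adjusted p = 0.836) and for COL3A1 -1.10 (-3.14 to 0.93, edgeR adjusted p = 0.800). SPARC stood at -0.71 (-2.30 to 0.88, edgeR adjusted p = 0.836) and DCN at 0.04 (-0.87 to 0.94, edgeR adjusted p = 0.987). The 4 values below 0 thus had intervals that reached from several-fold lower to about 2-fold higher in Gayal, so neither equality nor a large difference can be read from them. The median over the 5 genes was -0.83, beside -0.03 over all tested genes, and 52.2% of all genes were below 0.

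These values depended on single libraries. Without Banna replicate 2 the differences were -0.55 for COL1A1, -0.09 for COL1A2, -0.36 for COL3A1, 0.20 for DCN and -0.12 for SPARC. Without Gayal replicate 1 they were -0.96, -0.45, -0.44, -0.39 and -0.03 in the same order. Leaving out Gayal replicate 3 moved the collagens the other way, to -2.40 for COL1A1, -1.39 for COL1A2 and -1.76 for COL3A1. In that fit 0 of the 5 were called, against 0.0136% of all genes, and COL1A1 (edgeR unadjusted p = 0.0378, adjusted p = 0.696) and COL3A1 (edgeR unadjusted p = 0.0475, adjusted p = 0.696) reached an unadjusted p under 0.05, against 7.14% of all genes. Within batch A, which holds Gayal replicate 1 and Banna replicates 1 and 2, the values were -1.93, -1.23, -1.78, 0.45 and -1.41, again in that order. Within batch B, which holds Banna replicate 3 and Gayal replicates 2 and 3, they were -0.89, -0.38, -0.36, -0.32 and 0.04. Each within-batch fit has 1 residual degree of freedom, and a lone library in it is taken to have the spread of the other species. With species as the only term the differences were larger, at -2.39 for COL1A1, -1.69 for COL1A2, -2.29 for COL3A1 and -1.47 for SPARC, and -0.33 for DCN, and edgeR called 0 of the 5 (adjusted p of 0.972 to 0.989). That design called 0 of all 14112 genes, 0%, so the count says nothing particular about these 5.

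The species by batch interaction, which asks whether the species difference was the same in both batches, was called for 0 of the 5 genes by edgeR, where 0 of 14112 genes, 0%, were called in either direction. At an unadjusted p under 0.05 it gave 0 of the 5, against 931 of 14112 genes, so that count says nothing particular about these 5. DESeq2 and limma-voom also called 0 of the 5. The DESeq2 background was 0.809% higher and 0.957% lower, and that of limma-voom was 0%. The interaction was 0.97 for COL1A1 (95% interval -4.26 to 6.19), 0.78 for COL1A2, 1.35 for COL3A1, -0.84 for DCN and 1.38 for SPARC. With 2 residual degrees of freedom these intervals spanned many-fold differences in both directions for the collagens.

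**Figure D2:**
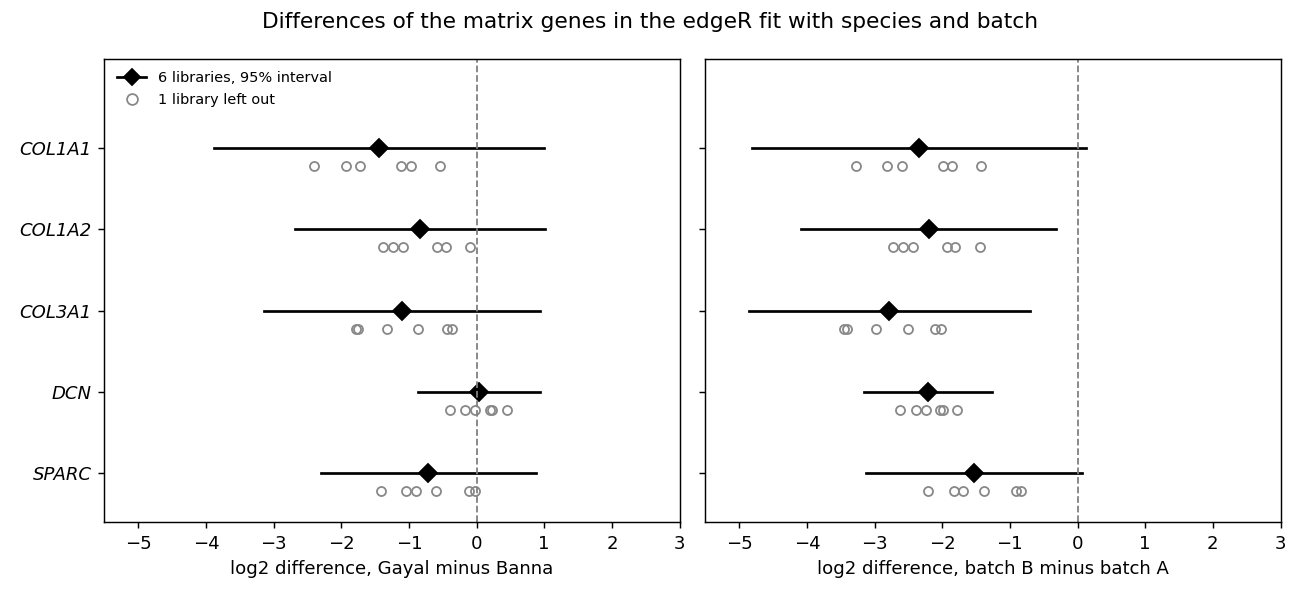
Log2 differences of the matrix genes from the edgeR fit with species and batch, Gayal minus Banna on the left and batch B minus batch A on the right; diamonds and bars are the value and 95% interval from 6 libraries, open circles the values with 1 library left out. All species intervals include 0, and the batch interval of DCN runs from -3.15 to -1.27.

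The batches were apart in the same direction for all 5 genes. Every batch A library was above every batch B library for 5 of 5 genes, as it was for 3124 of 14112 tested genes, 22.1%. The gap between the lowest batch A library and the highest batch B library was 2.69-fold for COL3A1, 2.36-fold for DCN, 1.86-fold for COL1A1, 1.74-fold for COL1A2 and 1.34-fold for SPARC. The separation held for all 5 with library totals or DESeq2 size factors in place of TMM. Batch A holds 2 Banna libraries and batch B 1, and the fit below takes account of species.

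With species in the fit, 1 of the 5 genes, DCN, was called lower in batch B by edgeR, against 973 of 14112 genes or 6.89%. None was called higher, against 7.73%. DCN was at 326 ± 111 CPM in batch A and 70.9 ± 18.0 CPM in batch B (SD, n = 3), a log2 difference of -2.21 (95% interval -3.15 to -1.27, edgeR adjusted p = 0.0219). The size changed little with the library left out, from -2.62 to -1.78, but the call was lost without Banna replicate 3 or any 1 of the Gayal replicates (edgeR adjusted p of 0.0688 to 0.193). In these 4 fits edgeR called 0 of all genes, at 2 residual degrees of freedom. Within Gayal alone the DCN difference was -2.55 and within Banna alone -1.78. These are given as sizes only, since each rests on 1 library in one batch (Gayal replicate 1 or Banna replicate 3) and has 1 residual degree of freedom. EdgeR called 3.12% of genes lower in batch B within Gayal and 0% in either direction within Banna.

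The collagen genes had differences of like size and wider error. COL3A1 was at 555 ± 552 CPM in batch A and 54.9 ± 31.3 CPM in batch B (SD, n = 3), a log2 difference of -2.78 (95% interval -4.85 to -0.71, edgeR adjusted p = 0.0748). COL1A1 had a log2 difference of -2.34 (-4.82 to 0.13, edgeR adjusted p = 0.166) and COL1A2 one of -2.20 (-4.09 to -0.32, edgeR adjusted p = 0.105). For SPARC it was -1.53 (-3.13 to 0.06, edgeR adjusted p = 0.161). An unadjusted p under 0.05 was reached by 3 of the 5, COL1A2, COL3A1 and DCN, where 33.8% of all genes reached it. The median over the 5 genes was -2.21, beside -0.09 over all tested genes, of which 52.9% were below 0.

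Other tools called more of them lower in batch B. DESeq2 called 4 of 5, all but SPARC, against 13.9% of genes lower and 11.5% higher, with adjusted p of 1.12e-05 for DCN, 0.00194 for COL3A1, 0.0139 for COL1A2, 0.0350 for COL1A1 and 0.0522 for SPARC. Limma-voom called 2 of 5, DCN (adjusted p = 0.0157) and COL3A1 (adjusted p = 0.0485), against 7.94% of genes lower and 8.97% higher. Without Banna replicate 2, where the collagens were highest, the edgeR log2 differences were -1.43 for COL1A1, -1.44 for COL1A2, -2.02 for COL3A1, -2.03 for DCN and -0.91 for SPARC, and DCN was the 1 gene called (edgeR adjusted p = 0.0367), against 3.37% of genes lower. Without Banna replicate 1 it was again DCN alone (edgeR adjusted p = 0.0307), against 3.79%. With batch as the only term edgeR called DCN and COL3A1, against 8.87%. The count step followed the batches, at 3.31 to 3.33 counts in batch A and 4 in batch B. Genes with counts above 0 numbered 15909 to 16317 in batch A libraries and 15097 to 15659 in batch B libraries. With counts divided by the step, edgeR called DCN alone lower, against 1250 of 12276 genes. Its log2 difference was then -2.26 (edgeR adjusted p = 0.0163). What the batches were is not given in the sources used here, and the part of such differences in these values was not tested.

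**Figure D3:**
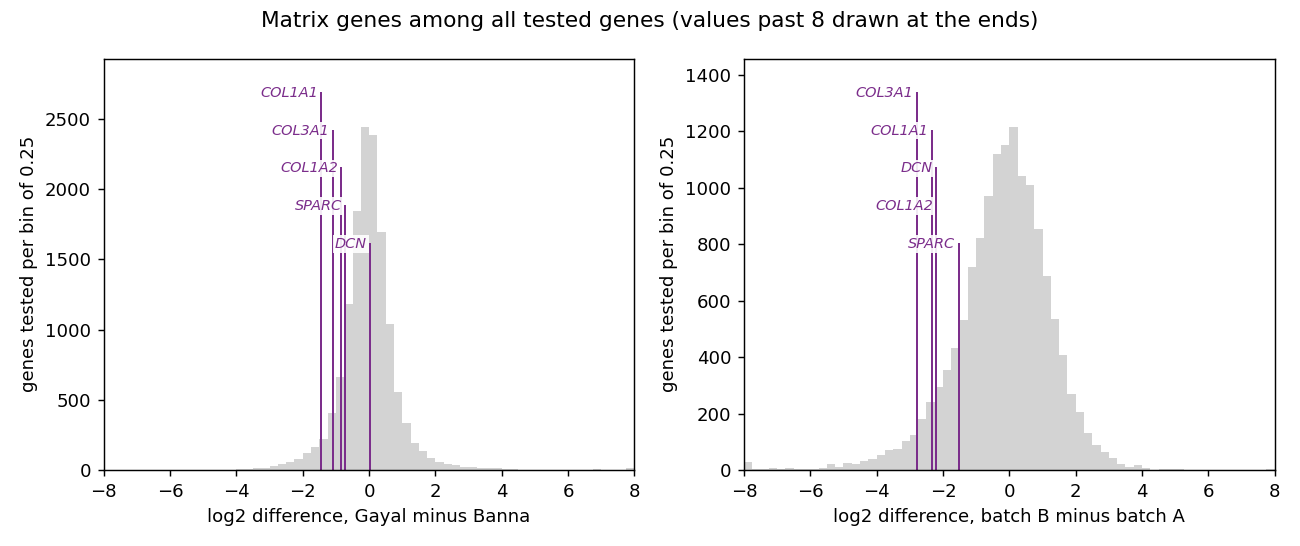
Histograms of the log2 difference over all 14112 tested genes in the edgeR fit, Gayal minus Banna on the left and batch B minus batch A on the right, with a line at each matrix gene; line height only separates the names. For the batch difference all 5 lie left of 0, between -2.78 and -1.53, and for the species difference 4 of 5 do.

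Profiles over the 6 libraries were compared by the root mean square (RMS) distance between genes of log2 CPM (with 0.5 added), centred on each gene's own mean, so that 0 means equal changes at any level. As seen from COL1A1, COL3A1 was the 2nd nearest of 14111 other genes (0.44) and COL1A2 the 4th nearest (0.55), while the median gene was at 1.99. As seen from COL3A1, COL1A2 was the 8th nearest (0.42) and COL1A1 the 9th (0.44). As seen from COL1A2, COL3A1 was the 20th nearest and COL1A1, the partner chain, the 65th. COL1A1 and COL3A1 were thus among the 10 genes nearest to each other, and COL1A1 was not among the 10 nearest to COL1A2. SPARC and COL1A2 were 0.51 apart, which made SPARC the 40th nearest gene to COL1A2 and COL1A2 the 295th nearest to SPARC. As seen from DCN, SPARC was 1301st, COL1A2 1469th, COL3A1 3881st and COL1A1 6709th in nearness, but as seen from the collagens DCN was 229th for COL1A2, 289th for COL3A1 and 324th for COL1A1. The order of neighbours thus depended on the gene it was taken from. The distance of 1.17 between COL1A1 and DCN ranked 324th from COL1A1 and 6709th from DCN. Distances are not scaled for spread, so near ranks among the wide-ranging collagens may in part reflect their spread. These are descriptions over 6 libraries that fall into batches.

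The mean centred profile of the 5 genes was 0.49 in Banna replicate 1, 2.49 in Banna replicate 2, -0.74 in Banna replicate 3, 0.66 in Gayal replicate 1, -2.29 in Gayal replicate 2 and -0.61 in Gayal replicate 3, in log2 units. Outside the 5, the gene nearest to this profile was ENSBTAG00000018223, at an RMS distance of 0.13, where the median gene was at 1.51. It was at 6.21, 26.7 and 1.90 CPM in Banna replicates 1 to 3 and at 7.10, 0.293 and 2.24 CPM in Gayal replicates 1 to 3. The next was ENSBTAG00000011454, at a distance of 0.21, with 37.0 CPM in Banna replicate 2 and 0.745 CPM in Gayal replicate 2. Both shared the highest and the lowest library with the collagens, which follows from picking genes nearest to this profile. Their levels in Gayal replicate 2 were near the 0.5 CPM added before taking logs. The files do not pair these identifiers with symbols.

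Ratios between matrix genes within a library do not depend on how libraries are scaled. Because counts are not divided by length, a ratio is read only across libraries. The ratio of COL1A1 to COL1A2 counts, the 2 genes of type I collagen, was 1.35, 1.78 and 1.45 in Banna replicates 1, 2 and 3 and 1.05, 0.519 and 1.16 in Gayal replicates 1, 2 and 3. All Gayal libraries were below all Banna libraries, although neither gene separated the species by itself. The mean log2 ratio of Gayal was -0.22 ± 0.63 and that of Banna 0.60 ± 0.21 (SD, n = 3), a difference of -0.82. The two-sided exact permutation p was 0.1, the smallest that 3 libraries against 3 allow, and 0.4 after Benjamini-Hochberg adjustment over the 4 ratios compared, so it did not pass. Within batch A the difference was -0.56 and within batch B -0.91, and without Gayal replicate 2, which had the lowest ratio, it was -0.46. The smallest gap between the species was that of Gayal replicate 3, at 1.16, and Banna replicate 1, at 1.35.

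As a background, the ratio to COL1A2 was lower in all Gayal than in all Banna libraries for 6 of 14111 genes, 0.0425%. That share is low in part by construction, since COL1A2 varied more than most genes and its own overlap between species enters every such ratio. For the levels themselves, 5.82% of genes were lower and 4.54% higher in all Gayal than in all Banna libraries, and 0 of the 5 matrix genes were either. The libraries with the highest and lowest ratio, Banna replicate 2 and Gayal replicate 2, were also those with the highest and lowest level of both genes. How reads of Gayal transcripts align to each cattle gene was not tested.

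The ratio of type III to type I collagen transcripts, COL3A1 over COL1A1, was 1.84, 1.27 and 0.870 in Banna replicates 1 to 3 and 1.49, 2.23 and 1.13 in Gayal replicates 1 to 3. It stayed within 2.56-fold over the libraries while each gene ranged over 61.3-fold or more, and the species overlapped (log2 difference 0.30, exact permutation p = 0.5, two-sided). The ratio of DCN to COL1A1 ran from 0.407 in Banna replicate 2 to 5.78 in Gayal replicate 2, a 14.2-fold range. Its species difference was 1.62 in log2 units, with overlap (exact permutation p = 0.2, two-sided). The ratio of SPARC to COL1A1 ran from 2.10 in Banna replicate 2 to 20.4 in Gayal replicate 2, and its species difference was 1.18 (exact permutation p = 0.3, two-sided). That difference was 0.41 without Gayal replicate 2, 0.21 within batch A and 1.52 within batch B. DCN and SPARC were thus high relative to COL1A1, the denominator, where COL1A1 was lowest, and low where it was highest. Between batches the 4 ratios overlapped, with exact permutation p of 0.2 to 0.7 (two-sided; 0.7 for each after adjustment).

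**Figure D4:**
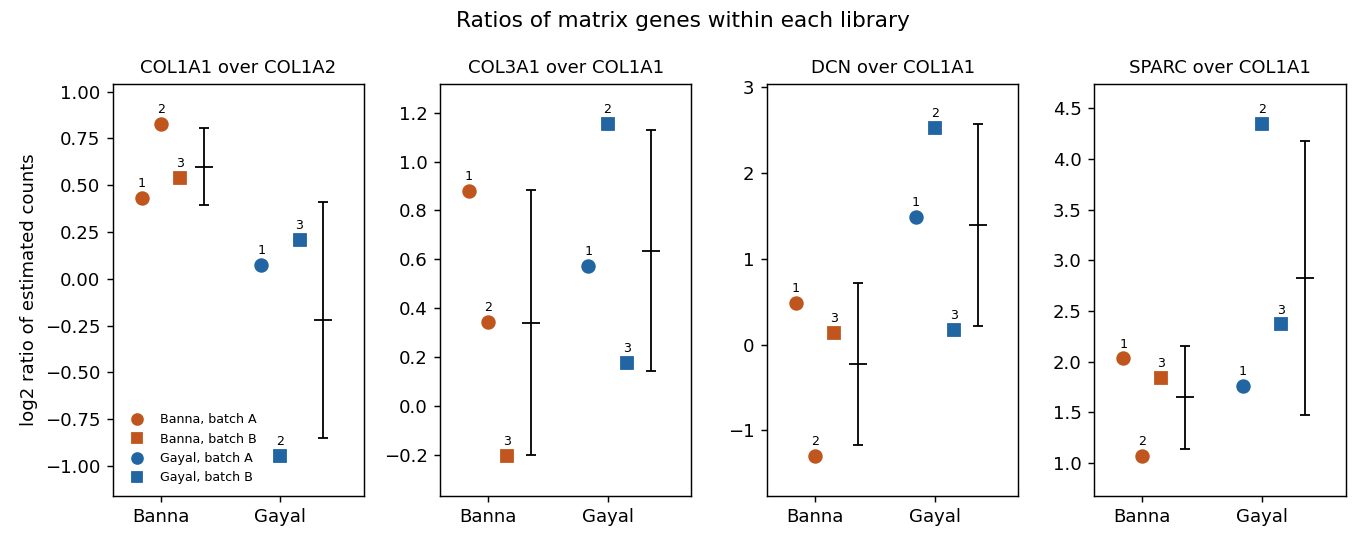
Log2 ratio of estimated counts of matrix genes within each library, by species, with an axis of its own for each ratio; points are libraries numbered by replicate, shape is batch, and the bar is the mean ± SD of 3 libraries. COL1A1 over COL1A2 is at 0.43 to 0.83 in Banna and -0.95 to 0.21 in Gayal, and the other 3 ratios overlap between species.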

How the data were processed

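The authors deposited a table of whole numbers per gene and library, not scaled for depth, which was treated as estimated counts since its low values fell on multiples of a step (searched among values up to 60). HISAT2 2.0.4 and the build ARS-UCD1.2 are named in the submitters' processing notes. Not given in the sources used here are the annotation, the counting program, the use of strand and the treatment of reads shared by related collagen genes. A deposited sample sheet gave batch and fibre class. Of the identifiers, 0 matched the RefSeq table used here, so planned lists of other matrix genes and cell type markers were not analysed, and no sequence is printed.

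The fits used edgeR 4.0.16 in R 4.3.3 (TMM, filterByExpr, robust quasi-likelihood F test, species and batch as terms, Benjamini-Hochberg over all 14112 tested genes, threshold 0.05), and the 95% intervals came from its F statistic. The edgeR, DESeq2 and limma-voom fits were run on counts simulated with known species differences. That run checked the species term only, and its outcome is not reported here. DESeq2 1.42.0 and limma 3.58.1 were alternatives. DESeq2 was run on all genes with counts. Ratios were compared by exact permutation. The genes to be named were all 5 members and the genes nearest to their mean profile. The members, lists and tests were chosen with earlier results of these data known.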

Additional observations from a re-analysis of the deposited data

Results flagged for a closer look

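For DCN the species difference pointed in opposite directions in the batches: Gayal replicate 1 was above both Banna libraries of batch A, and Gayal replicates 2 and 3 were below the 1 Banna library of batch B. The interaction was -0.84 in log2 units (edgeR adjusted p = 0.891), so the difference between batches did not pass the test. In batch A the margin over Banna replicate 2 was small, 399 against 382 CPM. In batch B the margin of Gayal replicate 3 below Banna replicate 3 was also small, 78.5 against 83.9 CPM.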

How the results depend on the processing

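Except where the design fixes it, the cause of each shift below was not tested. Fits with a left-out library also had fewer samples. The fits within 1 species, those of DESeq2 and limma-voom without batch, and all alternatives for the interaction were chosen after the data were examined. No setting called any of the 5 genes for species or for the interaction. Over all genes, species calls ran from 0 of 14112 with species as the only term to 430 higher and 228 lower of 18997 with DESeq2. For the interaction they ran from 0 of 14112 in the fit reported to 115 higher and 136 lower of 14209 with DESeq2. At such shares, 0 of 5 says little about these genes. Genes lower in batch B, 1 in the fit reported, were 4 with DESeq2, 2 with limma-voom, 2 with batch as the only term, 0 within Banna (where edgeR called 0 of 15020 genes), and 0 to 1 when single libraries were left out. The log2 species difference of DCN turned to -0.33 with species as the only term, -0.35 with DESeq2 and -0.65 with limma-voom on that design, -0.58 with the replicate block without batch term, -0.32 within batch B, and -0.39 to 0.45 over the left-out libraries. With the replicate block and the batch term the species difference turned to 0.28 for COL1A2 and 0.067 for SPARC. It moved to -0.06 for COL1A1 and -0.02 for COL3A1. By its design that fit takes the species difference only from the libraries numbered 1 and 3. Those numbered 2 differ in batch as well as species, so the batch term takes up their difference. Banna replicate 2 and Gayal replicate 2 thus do not enter these values. SPARC was at 0.039 within batch B. With the replicate number as a block, with or without batch, edgeR called 0 of the 5 genes and 0 of all genes. Libraries with the same number had deviations from their species means that correlated at 0.31, -0.52 and 0.35 across genes, and 2 of 6 libraries correlated best with their own number, while the labels name no pairing. The libraries numbered 2 are from different batches and the others from the same batch, so batch cannot be told apart from pairing in these values. The interaction turned to -0.28 for COL1A1 with limma-voom, and over the left-out libraries it ran from -1.16 to 1.85 for COL1A1, -0.77 to 1.604 for COL1A2 and -0.10 to 2.15 for COL3A1; without Banna replicate 3 or Gayal replicate 1 it could not be fitted. The species difference of the COL3A1 to COL1A1 ratio was -0.038 within batch A and 0.87 within batch B. Over all genes, DESeq2 called 2016 higher and 2431 lower in batch B against 1091 and 973 in edgeR, and upper-quartile scaling 855 and 1259. That scaling moved the median batch difference of all genes from -0.09 to -0.24, and library totals moved the median species difference from -0.03 to 0.07.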
